A study of Mus musculus with 43 samples.

Results

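The contractile genes of peritubular myoid cells were followed in mouse testis at postnatal day 7 (P7). The 10 members were Acta2, Actg2, Tpm2, Lmod1, Myh11, Myl9, Mylk, Cnn1, Tagln and Des, chosen by name as smooth muscle contraction genes and matched by gene symbol to 10 of the 55401 gene IDs in the expression tables. The study deleted Prmt1, an arginine methyltransferase, with a tamoxifen-inducible Cre under the germ cell promoter Ddx4, and compared Prmt1 dKO with WT mice on a C57BL/6J background. Whole testis RNA (bulk RNA-seq) was measured in 3 WT and 3 dKO samples and sorted EGFP-positive spermatogonia (Smart-seq2) in 2 WT and 2 dKO samples, all at P7. Peaks of 7 histone marks were listed by CUT&Tag in 33 samples of germ cell-enriched tubule suspensions at P7 and P14. The study takes P7 for spermatogonia and P14 for spermatocytes, while the P14 titles say spermatogonia and the cell type label spermatocyte, so age and germ cell type cannot be told apart.

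Prmt1 dKO mice carried Ddx4-CreERT2 and floxed Prmt1 alleles in which exons 4 and 5 lie between loxP sites, and they received tamoxifen on 3 consecutive days. For the RNA samples the study does not say outright whether WT mice also received it, nor whether bulk WT mice carried the Cre. If they did not, genotype cannot be told apart from tamoxifen or Cre in bulk. According to the methods of the study, the Smart-seq2 samples labelled WT were heterozygous for the floxed allele and carried the same Cre and EGFP, so control and dKO cells shared the driver. Cre expression was directed to germ cells, while the contractile genes belong to somatic cells. The study describes its replicates as biological, but the labels tie no library to an animal, so p-values measure the spread between these libraries. The WT CUT&Tag samples were C57BL/6J, and dKO lists were given for H4R3me2s at P7 only.

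Peritubular myoid cells are flat, smooth muscle-like cells that wrap the seminiferous tubule, and their slow contractions move fluid and immature sperm along it. As in other smooth muscle, force comes from thick filaments of smooth muscle myosin that pull on actin thin filaments once calcium, acting through calmodulin, switches on myosin light chain kinase. Transcription of these genes is known to depend on serum response factor (SRF), which binds the CArG box, and its cofactor myocardin. Vascular smooth muscle and pericytes in the testis share many of the same genes, so none of the 10 marks myoid cells alone.

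In mm10 (GENCODE vM21), Acta2 lies at chr19:34241090-34255590, Actg2 at chr6:83512905-83536265, Tpm2 at chr4:43514711-43523765, Myh11 at chr16:14194535-14291372 and Tagln at chr9:45929619-45936058, all on the minus strand. Lmod1 lies at chr1:135324807-135368065, Myl9 at chr2:156775420-156781658, Mylk at chr16:34745210-35002420, Cnn1 at chr9:22099216-22109630 and Des at chr1:75360329-75368579, all on the plus strand. The 10 genes are spread over 7 chromosomes, and only Des and Lmod1, Mylk and Myh11, and Cnn1 and Tagln share one.

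The bulk libraries are labelled spermatogonia but held RNA of the whole testis. Summed TPM (a level per transcript length, scaled to the library total) of 10 Sertoli cell markers was 6477 to 6928 in bulk WT, that of 10 stromal markers 3598 to 3845, and that of 10 germ cell markers 1624 to 1892. In Smart-seq2 WT, germ cell markers summed to 1592 to 1596 TPM, stromal markers to 9.45 to 44.3 TPM and Sertoli markers to 296 to 308 TPM, and all 10 macrophage markers, 8 of 10 endothelial markers and 5 of 7 Leydig cell markers had no count. Total counts were 12396345 to 16598249 in bulk and 15610392 to 18547103 in Smart-seq2. Prmt1 had 3540, 3572 and 3927 counts in bulk WT and 1996, 2496 and 2484 in dKO (log2 fold change -0.49 ± 0.13 SE, edgeR FDR 0.0334). In Smart-seq2 it had 4182 and 2852 counts in WT and 1746 and 1307 in dKO (log2 fold change -0.88, FDR 0.133).

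Promoter windows from RefSeq (GRCm38.p6, 250 bases before to 50 after the gene's start) were given for 7 members, Acta2, Tpm2, Lmod1, Myl9, Mylk, Cnn1 and Des; Actg2, Myh11 and Tagln had no entry. The windows were searched for the CArG box, first exactly and then with 1 other base allowed. The exact box was found in 1 of the 7 members, Myl9, against 1.63% of all 32851 windows, and the looser form in 3 of 7, Acta2, Lmod1 and Myl9, against 21.1% of all windows. The matches are shown because the CArG box is the motif of SRF, and the capitals mark the 10 bases of each match.
Myl9 exact box, chr2:156775293-156775322, plus strand: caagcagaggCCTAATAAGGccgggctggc
Myl9 looser box, chr2:156775355-156775384, plus strand: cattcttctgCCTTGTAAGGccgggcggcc
Acta2 looser box, chr19:34255438-34255467, minus strand: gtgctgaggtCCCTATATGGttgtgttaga
Acta2 second looser box, chr19:34255388-34255417, minus strand: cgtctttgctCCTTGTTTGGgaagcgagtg
Lmod1 looser box, chr1:135324614-135324643, plus strand: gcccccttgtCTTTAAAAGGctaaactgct
Lmod1 second looser box, chr1:135324639-135324668, plus strand: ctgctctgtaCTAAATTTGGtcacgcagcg
RefSeq and GENCODE place the starts of these genes differently. The exact box of Myl9 began 161 bases before the RefSeq start (chr2:156775464) and 117 bases before the GENCODE gene start. The looser boxes of Acta2 began 84 and 34 bases before the RefSeq start (chr19:34255373), but 133 and 183 bases after the GENCODE gene start, where GENCODE annotates an exon. The MCAT motif CATTCC, read on both strands, was found in 3 members, Acta2, Lmod1 and Mylk (in Mylk within a GENCODE intron), against 14.7% of all windows, and none of its matches overlapped a CArG match. A match is a string of letters and not a bound site.

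The first question was whether contractile transcripts changed in the whole testis after the germ cell deletion. In bulk RNA, 4 of the 10 members fell past the threshold of a Benjamini-Hochberg FDR under 0.05 and a change of at least 2-fold in edgeR's quasi-likelihood test. They were Cnn1, Actg2, Myh11 and Acta2. Over all 16554 genes tested, 1.78% passed as lower and 5.32% as higher, and no member was called higher. A further 3 members, Mylk, Lmod1 and Des, had an FDR under 0.05 with a change of less than 2-fold, and Tagln, Tpm2 and Myl9 did not pass. The estimates of all 10 lay below 0, with a median log2 fold change of -0.78 beside 0.02 over all genes tested. In whole tissue, fewer cells of a type and less RNA per cell cannot be told apart.

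**Figure D1:**
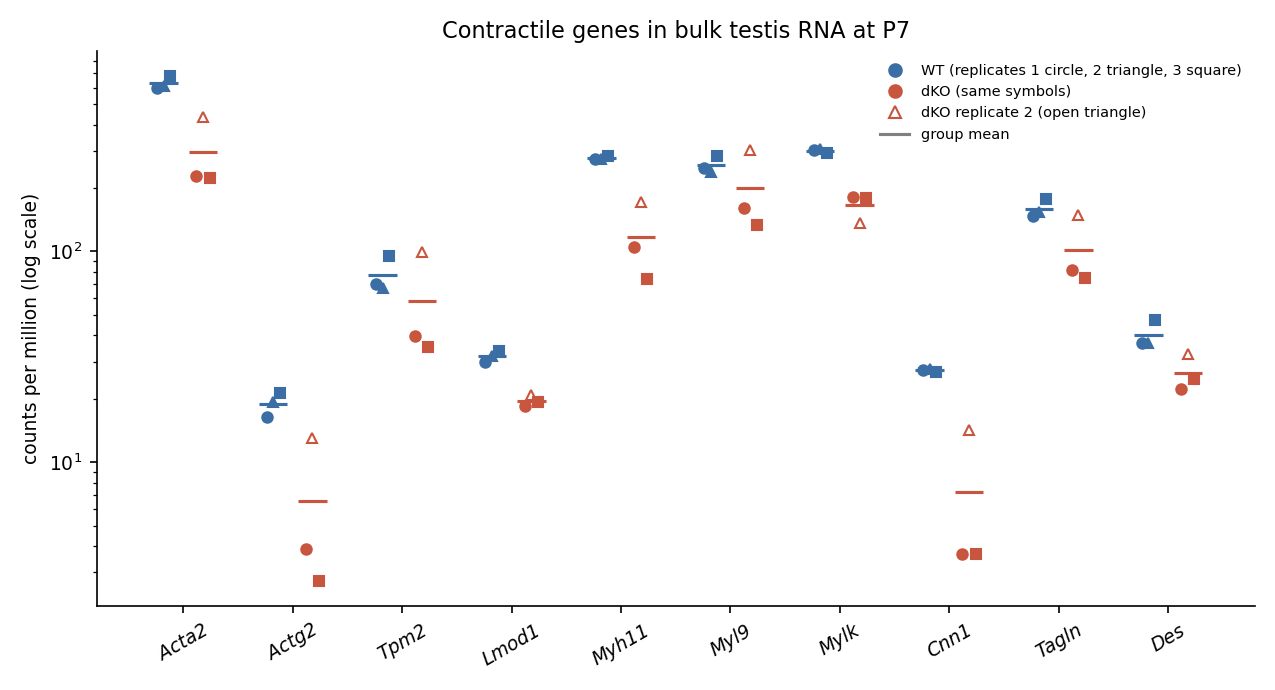
CPM of the 10 contractile genes in each bulk library at P7 on a log axis, with WT in blue, dKO in red and a bar at each group mean. In dKO replicates 1 and 3 all 10 genes lie below the WT libraries, while the open triangle of dKO replicate 2 lies higher for every gene but Mylk.

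Of the thin filament genes, Acta2 encodes the smooth muscle alpha actin by which myoid cells are usually stained. It had 599, 610 and 681 CPM (counts scaled to library size, with TMM factors) in WT and 229, 437 and 222 in dKO. All WT libraries were above all dKO libraries, and dKO replicate 2 was the nearest to WT. The group means were 630 ± 44.2 (SD, n = 3) and 296 ± 122 CPM (SD, n = 3), a log2 fold change of -1.09 ± 0.24 (SE, edgeR FDR 0.0152). Actg2, the smooth muscle gamma actin, had 16.4, 19.2 and 21.3 CPM in WT and 3.87, 13.1 and 2.73 in dKO. The groups did not overlap, and the log2 fold change was -1.56 ± 0.47 (SE, edgeR FDR 0.0478). Acta2 and Actg2 share 84.4% of their aligned coding bases, and both had whole counts (within 0.005) in all 10 libraries.

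Tpm2 encodes a tropomyosin that lies along the actin filament and gates access of myosin to it. Its values were 70.0, 67.3 and 94.8 CPM in WT and 39.7, 99.2 and 35.3 CPM in dKO. The highest of the 6 libraries was a dKO library, the groups overlapped, and the log2 fold change of -0.42 ± 0.35 (SE) did not pass the test (edgeR FDR 0.441). Lmod1, a leiomodin that starts new actin filaments, had 29.8, 31.8 and 33.7 CPM in WT and 18.5, 20.9 and 19.4 CPM in dKO. Here the groups stood well apart and the dKO libraries lay close together, with a log2 fold change of -0.70 ± 0.12 (SE, edgeR FDR 0.00479), under the 2-fold limit.

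Of the thick filament genes, Myh11 encodes the smooth muscle myosin heavy chain, the motor of the system. It had 276, 275 and 285 CPM in WT and 106, 172 and 74.0 CPM in dKO. The WT libraries were tightly grouped and all above the dKO libraries, and the log2 fold change was -1.25 ± 0.25 (SE, edgeR FDR 0.0109). Myl9, the regulatory light chain that the kinase phosphorylates, had 248, 238 and 285 CPM in WT and 161, 304 and 134 CPM in dKO. One dKO library exceeded every WT library, and the log2 fold change of -0.36 ± 0.27 (SE) did not pass (edgeR FDR 0.371).

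Mylk, the gene of the myosin light chain kinase, had 303, 308 and 292 CPM in WT and 182, 136 and 180 CPM in dKO. It was the one member lowest in dKO replicate 2, and its log2 fold change of -0.86 ± 0.13 (SE) had the lowest FDR of the 10 (edgeR, 0.00328). The RSEM tables also give the mean length of the transcripts to which a gene's reads were assigned, weighted by abundance. For Mylk this length was 4100 ± 111 bp (SD, n = 3, range 4012 to 4225 bp) in bulk WT and 4714 ± 187 bp (SD, n = 3, range 4548 to 4917 bp) in bulk dKO. The groups did not overlap, and the exact two-sided permutation test gave p = 0.1, the smallest that 3 against 3 libraries allow. Apart from Tpm2, whose mean length was 3.47% longer in dKO, no other member had lengths that did not overlap between the groups. Of the 13412 genes tested whose lengths varied, 9.81% were longer in dKO without overlap and 11.2% shorter, and 2.81% were longer by at least as large a ratio as Mylk. Mylk counts per gene were fractional, by more than 0.005, in 7 of 10 libraries, and its exons share 548 and 224 bases with antisense transcripts on the opposite strand, so its values carry that uncertainty.

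Cnn1 and Tagln belong to the calponin family of actin-binding proteins. Cnn1 had 27.3, 27.8 and 26.8 CPM in WT and 3.65, 14.3 and 3.68 CPM in dKO. The dKO replicates 1 and 3 were nearly equal, replicate 2 lay between them and WT, and the log2 fold change of -1.94 ± 0.45 (SE, edgeR FDR 0.0175) was the largest drop among the 10 members. Tagln had 147, 154 and 177 CPM in WT and 81.5, 149 and 74.5 CPM in dKO, so dKO replicate 2 fell inside the WT range. Its log2 fold change was -0.65 ± 0.24 (SE, edgeR FDR 0.0882). Of the 1988 exonic bases of Tagln, 1241 also lie in an antisense transcript, and its counts were fractional by the same tolerance in all libraries but 1, so reads of the gene and its antisense partners may be mixed.

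Des encodes desmin, the intermediate filament of muscle. It had 36.7, 37.0 and 47.4 CPM in WT and 22.2, 32.7 and 24.9 CPM in dKO, without overlap of the groups and with a log2 fold change of -0.60 ± 0.17 (SE, edgeR FDR 0.0382). In all, 7 of the 10 members had every dKO library below every WT library, a pattern found for 19.9% of all genes tested.

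**Figure D2:**
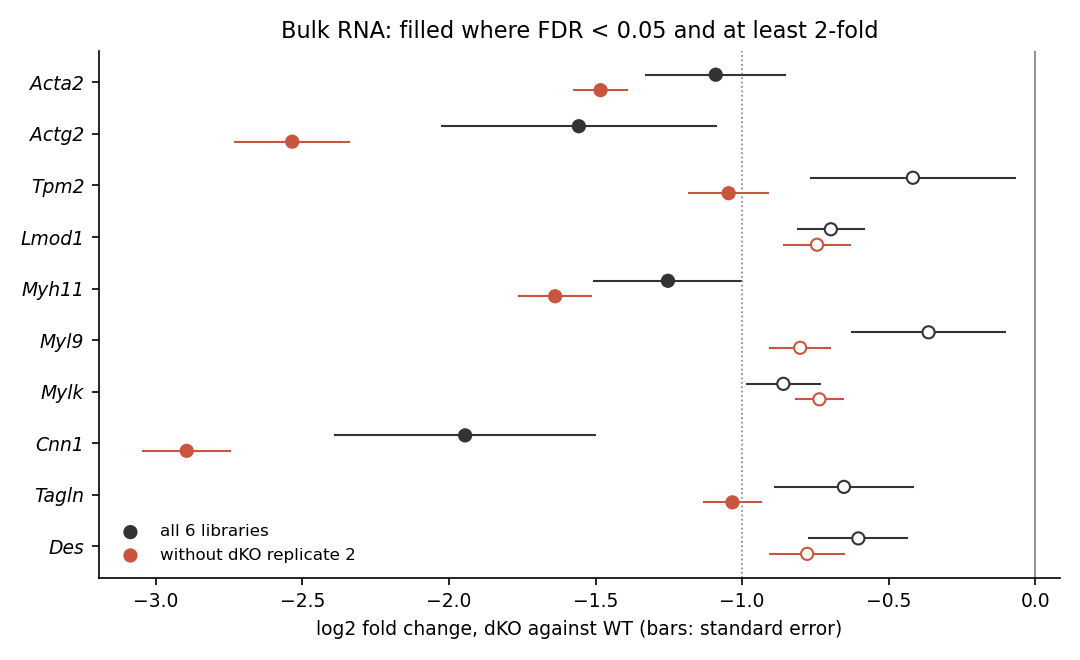
Log2 fold change of bulk dKO against WT with its standard error for each contractile gene, from all 6 libraries (black) and without dKO replicate 2 (red), filled where the FDR was under 0.05 and the change at least 2-fold. All 20 estimates lie below 0, and without that library 6 genes are filled in place of 4.

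One dKO library stood apart. In dKO replicates 1 and 3 all 10 members were below the WT range, with a median of 0.512 and 0.462 of the WT mean. In dKO replicate 2, 7 members were below it, Tagln was inside it, and Tpm2 and Myl9 were above it, with a median of 0.691 of the WT mean. Its level relative to the mean of the other dKO libraries was 3.96 for Actg2, 3.89 for Cnn1, 2.65 for Tpm2, 1.10 for Lmod1 and 0.752 for Mylk. This library also read short genes more and long genes less than the other bulk libraries did. Its median log2 deviation from the other libraries of its group was 0.363 for the 4139 genes with transcripts up to 1558 bp and -0.287 for the 4139 genes from 3462 bp, while the other 5 libraries stayed between -0.214 and 0.189. Among the members, Mylk with a mean of 4100 bp and Lmod1 with 3948 bp had the lowest ratios, but Myh11, the longest at 6528 bp, had a ratio of 1.92. The part of transcript length in these values was not tested.

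Without dKO replicate 2, 6 members were called lower, beside 2.36% of 16971 genes. Tagln (log2 fold change -1.03, FDR 8.96e-06) and Tpm2 (-1.05, FDR 8.58e-05) joined Acta2 (-1.48), Actg2 (-2.54), Myh11 (-1.64) and Cnn1 (-2.90), and 1449 genes were called in either direction. With all libraries 1175 of 16554 genes were, or 7.1%. Without WT replicate 1, WT replicate 2, dKO replicate 1 or dKO replicate 3, 2 members were called, which were Myh11 with either Acta2 or Cnn1, beside 1.14%, 1.33%, 1.87% and 1.56% of genes called lower. Without WT replicate 3, Cnn1, Myh11 and Acta2 were called, beside 1.4%. Myh11 was called in every fit that left out 1 library. An offset that removes each library's trend with transcript length was an alternative chosen after seeing the data. With it, Cnn1, Actg2 and Acta2 were called, beside 1.69% of genes called lower, and Myh11 had a log2 fold change of -0.95 (FDR 0.0652). Tagln (-0.80, FDR 0.0141) and Myl9 (-0.57, FDR 0.0466) passed the FDR with less than 2-fold change in that fit.

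The levels of the members per transcript length could be ordered within each group. In bulk WT the order of mean TPM was Acta2 (548 ± 22.5, SD, n = 3), Myl9 (478 ± 22.3), Tagln (189 ± 11.7), Tpm2 (124 ± 21.4), Mylk (121 ± 9.99), Myh11 (68.6 ± 0.772), Cnn1 (32.7 ± 3.10), Actg2 (28.5 ± 3.59), Des (23.1 ± 3.62) and Lmod1 (13.3 ± 0.560). The ranges of Tpm2 and Mylk, of Cnn1 and Actg2, and of Actg2 and Des overlapped, and all other neighbours were separate. In bulk dKO, Myl9 (326 ± 112 TPM, SD, n = 3) stood before Acta2 (225 ± 69.9 TPM) with overlapping ranges, and the mean of Cnn1 (6.95 ± 5.49 TPM) was the lowest, with a range that overlapped that of Lmod1 (7.33 ± 0.291 TPM). Together the 10 genes summed to 1573, 1601 and 1707 TPM in WT and to 764.5, 1141 and 635 TPM in dKO.

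Other genes of the smooth muscle program were read beside the members. Of 24 other smooth muscle cytoskeletal and contraction genes, all tested in bulk, none was called higher, and Jph2 was among those called lower. Their median log2 fold change was -0.52. Jph2, which ties the plasma membrane to the calcium store, had 271, 334 and 358 counts in WT and 104, 111 and 89 in dKO (log2 fold change -1.48, edgeR FDR 0.00199). Pdlim3 (log2 fold change -0.69), Palld (-0.98) and Flna (-0.75) had an FDR under 0.05 with less than 2-fold change. Of 13 nonmuscle relatives of the members, 0 were called by edgeR, with a median log2 fold change of -0.38. The 4 of them with the lowest FDR were the myosin heavy chains Myh9 (log2 fold change -0.96) and Myh10 (-0.70) and the tropomyosins Tpm4 (-0.51) and Tpm3 (-0.38), all with an FDR under 0.05.

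Among 8 transcriptional regulators of smooth muscle, 1 was called lower and none higher. It was Myocd, the gene of myocardin, with 125, 150 and 95 counts in WT and 48, 29 and 29 in dKO (log2 fold change -1.62 ± 0.29 SE, edgeR FDR 0.00614). Its partner Srf had 1301, 1495 and 1462 counts in WT and 1140, 835 and 1138 in dKO (log2 fold change -0.29, edgeR FDR 0.11). The related cofactors Mrtfa (log2 fold change -0.23) and Mrtfb (-0.10) and the factors Gata6 (-0.31), Mef2c (-0.21) and Klf4 (0.03) did not pass either, with edgeR FDR from 0.119 to 0.911. Of 12 genes of contraction signalling, 1 was called and it was higher. Oxtr, the oxytocin receptor, had 227, 241 and 301 counts in WT and 700, 592 and 736 in dKO (log2 fold change 1.57 ± 0.13 SE, edgeR FDR 0.000527), so its groups were far apart in the opposite direction to the contractile genes. The endothelin receptor Ednrb (log2 fold change -0.60) and the potassium channel Kcnma1 (-0.72) had an FDR under 0.05 with less than 2-fold change.

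Markers of other cells were read beside the members. Of 10 pericyte genes none was called, and their median log2 fold change was 0.65. Rgs5 (log2 fold change 0.85), Kcnj8 (0.93) and Pdgfrb (0.52) were higher and Cspg4 (-0.88) was lower with an FDR under 0.05. Stromal genes had a median of 0.41, and Tcf21 (0.86), Lum (0.71), Col3a1 (0.64) and Col1a2 (0.59) were higher with an FDR under 0.05. The estimates of Pdgfra (-0.16), Col1a1 (-0.21), Nr2f2 (-0.31) and Ptch1 (-0.22) lay below 0 and did not pass. Summed pericyte TPM was 154 to 171 in WT and 163 to 192 in dKO, and summed stromal TPM was 3598 to 3845 in WT and 4258 to 5191 in dKO. A summed TPM gives the most weight to abundant genes. Of 7 Leydig cell genes 4 were called lower, Cyp17a1 (-4.97), Insl3 (-4.66), Cyp11a1 (-2.34) and Star (-1.92). Lhcgr (0.69) was higher with an FDR under 0.05, and Hsd3b1 (-0.28) and Hsd17b3 (-0.17) did not pass. The summed TPM of the Leydig list was 742 to 842 in WT and 281 to 306 in dKO. Sertoli genes had a median of -0.48 with Amh (-1.80) called lower, and their summed TPM was 4482 to 5004 in dKO. No gene of the endothelial (median 0.48), macrophage (0.24) or germ cell (0.05) lists was called, but some had an FDR under 0.05 with less than 2-fold change. Of the endothelial genes, Pecam1 (0.95), Cldn5 (0.999), Esam (0.71) and Vwf (0.51) were higher and Kdr (-0.45) lower. Of the macrophage genes, Lyz2 (0.83) was higher and Mrc1 (-0.54) lower, and of the germ cell genes Ddx4 (-0.67) was lower. Of 8 striated muscle genes tested, Myh1 was called lower, and their median was 0.09. The part of these shifts in cell markers in the values of the contractile genes was not tested.

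**Figure D3:**
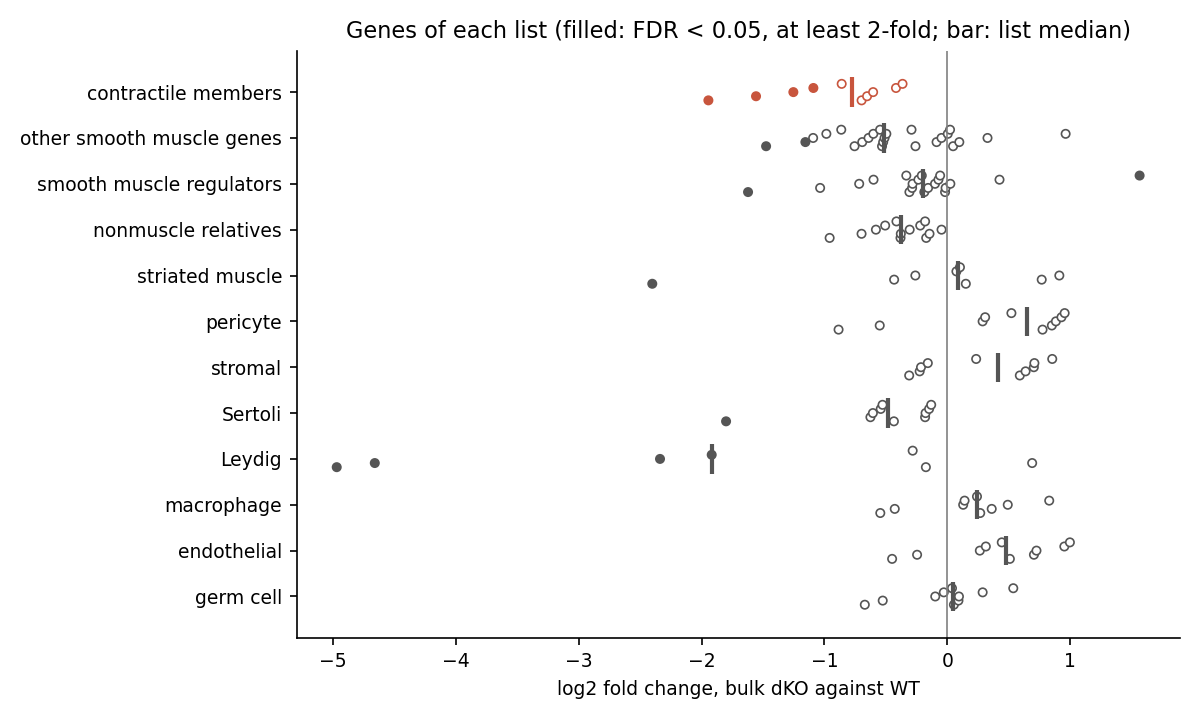
Log2 fold change of bulk dKO against WT for each gene of the contractile list (red) and of 11 comparison lists (grey), with a bar at the list median and filled points where the FDR was under 0.05 and the change at least 2-fold. All 10 contractile genes lie left of 0, while the medians of the pericyte (0.65) and stromal (0.41) lists lie right of it.

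The profile of the members over the 6 bulk libraries was compared with that of every other gene tested. The 5 genes with the highest Pearson correlation to the mean log2 CPM of the members were Sfxn1 (r = 0.995), Csrp1 (0.995), Trim28 (0.994), Alg8 (0.994) and Fam57a (0.993). These are descriptions over 6 libraries in 2 groups, which share depth and the deviation of dKO replicate 2. Csrp1, which encodes a cysteine-rich LIM protein of smooth muscle, had 2566, 2891 and 3124 counts in WT and 1593, 1918 and 1748 in dKO (log2 fold change -0.52, edgeR FDR 0.0303).

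The second question was whether the members changed in the sorted spermatogonia in which Prmt1 was deleted. There the contractile genes were low, and 8 of the 10 had no count in at least 1 of the WT libraries while Mylk and Tagln had counts in all 4 libraries. In Smart-seq2 the 10 members summed to 26.1 and 56.7 TPM in WT and to 19.2 and 30.8 TPM in dKO, and 5 and 3 of them had a count in the WT libraries beside 9 and 8 in the dKO libraries. Acta2 had 141 and 0 counts in WT and 11 and 32 in dKO. Myl9 had 0 and 532 counts in WT and 167 and 266 in dKO, so the replicates of WT lay on either side of both dKO libraries. Myh11 had no count in WT and 98 and 0 in dKO, and Actg2 had 4 and 0 counts in WT and none in dKO.

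Mylk and Tagln were the members with counts in all 4 Smart-seq2 libraries and groups that did not overlap downwards. Mylk had 699 and 761 counts in WT and 160 and 220 in dKO (log2 fold change -1.61 ± 0.45 SE, edgeR FDR 0.113). Tagln had 45 and 97 counts in WT and 8 and 2 in dKO (log2 fold change -3.48 ± 1.31 SE, edgeR FDR 0.203). Both had lower counts in each dKO library, and neither passed the test. The mean transcript length of Mylk was 3477 and 3695 bp in Smart-seq2 WT and 4684 and 4690 bp in dKO, longer in dKO as in bulk.

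A set of 3 members showed the opposite order. Cnn1, Des and Lmod1 had no count in either WT library, and they had 21 and 52, 25 and 23, and 18 and 14 counts in dKO. Against a floor of 3 counts over the WT group, they were at least 30.7-fold, 20.1-fold and 13.4-fold higher in dKO. Their edgeR FDR lay between 0.0774 and 0.0779, above the threshold. Fewer genes had a count in the WT libraries, 15595 to 17114, than in the dKO libraries, 20206 to 21416. The macrophage markers, all at 0 in WT, summed to 59.8 and 65.3 TPM in dKO with 3 of 10 at 0, and of the endothelial markers 8 of 10 were at 0 in WT and 2 of 10 in dKO. Summed TPM was also higher in dKO without overlap for Sertoli markers (296 to 308 in WT, 473 to 650 in dKO), pericyte markers (15.9 to 39.7 in WT, 45.5 to 55.8 in dKO), germ cell markers (1592 to 1596 in WT, 1955 to 1997 in dKO) and nonmuscle relatives of the members (1623 to 1973 in WT, 2551 to 2777 in dKO), while that of endothelial markers was 101.8 to 127 in WT and 74.4 to 98.8 in dKO. The regulator Srf had 120 and 0 counts in WT and 554 and 357 in dKO, while Myocd had none in any Smart-seq2 library. The part of these differences between the libraries in the counts of the members was not tested.

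Of all 16443 genes tested in Smart-seq2, edgeR called 0.0% lower and 0.0% higher, with 3911 at an unadjusted p under 0.05, and 0 of the 8 members tested were called, with 5 at an unadjusted p under 0.05. DESeq2 called 1902 genes and, of the members, Mylk as lower, beside 3.93% of genes lower. The limma-voom fit called 1696 genes and 3 members as higher, beside 9.4% of genes higher. Groups did not overlap downwards for 2 of 8 members beside 20.3% of genes, and upwards for 3 of 8 beside 36.3%. Without WT replicate 1, 5 members were called higher and 2 lower by edgeR, beside 29.5% and 12% of all genes, and without WT replicate 2, 4 were called higher and 3 lower, beside 22.5% and 11.2%, where the remaining WT library was taken to vary like the dKO libraries.

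**Figure D4:**
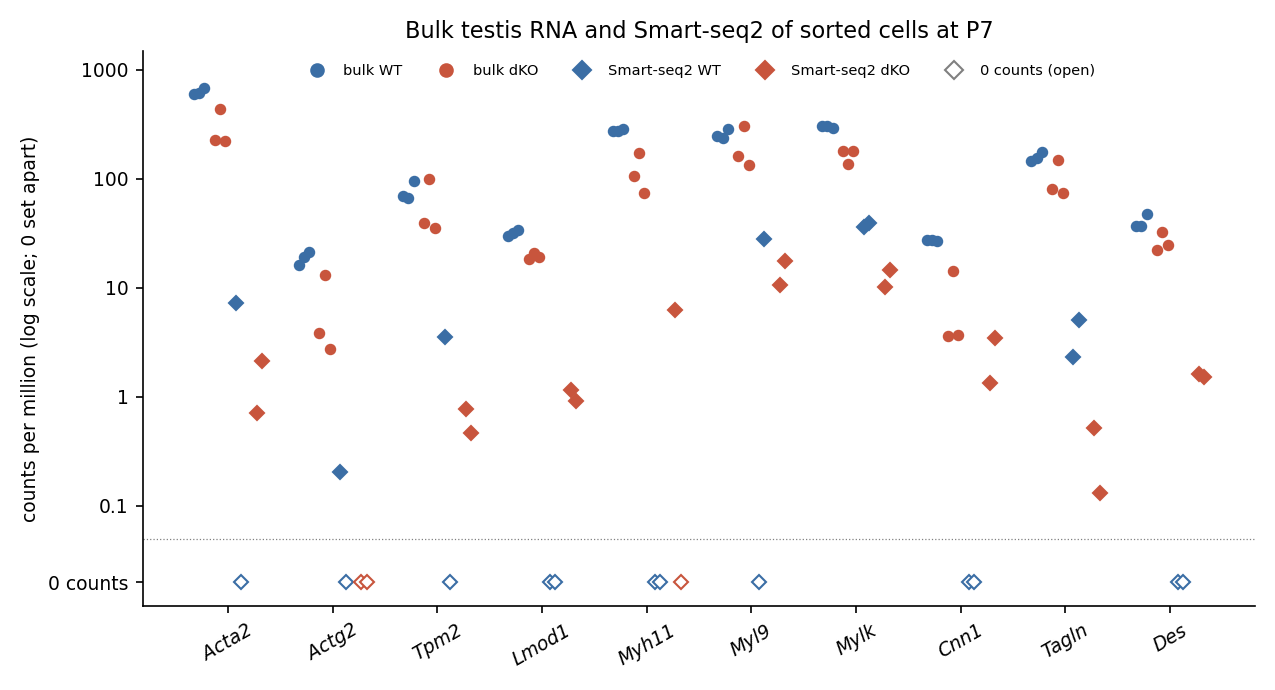
CPM of each contractile gene in the 6 bulk libraries (circles) and the 4 Smart-seq2 libraries (diamonds) on a log axis, with open diamonds for 0 counts set apart below the dotted line. Every diamond lies below the bulk libraries of its genotype, and Cnn1, Des and Lmod1 have open diamonds in both WT libraries and filled ones in dKO.

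The third comparison set the sorted cells against the whole testis, within each genotype. In WT, 9 of 10 members were called lower in Smart-seq2, beside 29.8% of all 16872 genes tested, and in dKO again 9 of 10, beside 31.6% of 18588. Every Smart-seq2 library was below every bulk library for all 10 members in both genotypes, beside 47.4% of genes in WT and 43.1% in dKO. Bulk and Smart-seq2 libraries differ in library chemistry and input as well as in cells, and these cannot be told apart.

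In WT, Acta2 was 172.5-fold lower in Smart-seq2 (log2 fold change -7.43 ± 1.71 SE, edgeR FDR 0.0198), Actg2 171.6-fold lower (FDR 0.00874), Tpm2 43.2-fold lower (FDR 0.0491) and Tagln 43.4-fold lower (FDR 0.00132). For Acta2, Actg2 and Tpm2 these folds rest on WT replicate 1, as replicate 2 had no count of any of the 3, and without replicate 2 the log2 fold changes were -6.51 (Acta2), -6.54 (Actg2) and -4.51 (Tpm2). With any one bulk WT replicate left out, Acta2 and Tpm2 did not pass the test (FDR 0.0665 to 0.157), and Actg2 did not without bulk WT replicate 3 (FDR 0.0502). Mylk showed the smallest gap of the members with counts in all libraries, 7.98-fold (log2 fold change -3.00 ± 0.09 SE, FDR 0.000527). Myl9 was 18.7-fold lower and did not pass the test (FDR 0.126), as its WT Smart-seq2 libraries held 0 and 532 counts. Against the floor of 3 counts, Myh11 was at least 3570-fold, Des at least 517-fold, Lmod1 at least 407-fold and Cnn1 at least 350-fold lower, because all had no count in Smart-seq2 WT.

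In dKO the gap was 299-fold for Tagln (log2 fold change -8.22 ± 0.54 SE), 206-fold for Acta2 (-7.69 ± 0.52), 91.0-fold for Tpm2, 36.3-fold for Myh11, 18.4-fold for Lmod1, 16.7-fold for Des, 13.9-fold for Myl9 and 13.2-fold for Mylk, all with an edgeR FDR under 0.001. The Myh11 value rests on dKO replicate 1, as replicate 2 had no count, and without replicate 2 its log2 fold change was -4.20 in place of -5.18. Actg2 was at least 66.9-fold lower against the floor. Cnn1 was 2.94-fold lower and did not pass (log2 fold change -1.55 ± 0.70 SE, edgeR FDR 0.0734). In TPM, Mylk had 13.8 and 14.3 in Smart-seq2 WT and 2.32 and 3.70 in dKO, and Myl9 had 0 and 37.7 in WT and 11.99 and 21.7 in dKO. The mean of Myl9 was the highest among the members in both genotypes, but in WT it rests on 1 library, as Myl9 was at 0 in replicate 1. Without bulk WT replicate 3 the count in WT was 6 of 10, beside 23.8% of genes, the lowest count of members among the fits that left out 1 library.

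The genotype effects of the assays were compared by an interaction term (the log2 fold change in bulk minus that in Smart-seq2). This fit shared its estimate of spread across the assays (common coefficient of variation 0.449). Separate fits gave 0.155 in bulk and 0.767 in Smart-seq2. The SE and FDR of the interaction may therefore be too small for effects that rest on Smart-seq2. The Smart-seq2 controls were also heterozygous for the floxed allele. Of 10 members, 4 were called lower, Cnn1, Des, Lmod1 and Myh11, beside 13.7% of 19608 genes, and 1 higher, Tagln, beside 3.50%. The 4 called lower were those with no count in Smart-seq2 WT. For Tagln the difference was 2.73 ± 0.75 (SE, edgeR FDR 0.0339), an estimate of a larger drop in the sorted cells than in the testis. It rests on 45, 97, 8 and 2 counts. For Mylk the difference of 0.66 ± 0.26 (SE) did not pass (FDR 0.11), nor did those of Acta2 (0.20 ± 1.47 SE) and Tpm2 (1.02 ± 1.56 SE, FDR 0.748).

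The fourth question was which histone marks lay at the promoters of the members. A member was counted as marked when at least 2 lists of a mark, age and genotype held a peak summit within 3000 bp of one of its transcript starts (GENCODE vM21, mm10), and the same count over 21951 protein-coding genes gave the background. The depth behind the lists is unknown. At P7 in WT, H3K4me3, the mark of active starts, was found at 5 of 10 members, Acta2, Tpm2, Lmod1, Myl9 and Mylk, beside 60.7% of protein-coding genes. H3K27ac, a mark of active promoters and enhancers, was found at 2, Acta2 and Mylk, beside 31.0%. The H3K27ac peaks of Mylk at P7 lay at chr16:34994107-34994306 and chr16:34993074-34993273, near a start inside the gene, and did not overlap each other. Of all 27 pairs of a member and a mark counted as marked, 5 had no peak shared between their lists. At P14, H3K4me3 was found at Acta2, Myl9, Mylk and Des, beside 63.1%, and H3K27ac at Acta2, Myl9 and Mylk, beside 48.9%. Tagln, Cnn1, Myh11 and Actg2 had neither mark in 2 lists at either age, although they had 28.5 to 189 TPM in bulk WT. By the study's methods, interstitial cells were removed by collagenase and the tubule suspension was strained to remove Sertoli cells. The study counts the filtrate as mostly germ cells, and the share of myoid cells was not given. At P7, H3K4me3 was found at 10 of 10 Sertoli, 9 of 10 stromal, 9 of 10 germ cell, 4 of 10 pericyte and 4 of 10 endothelial markers. For H3K27ac these counts were 4, 1, 2, 0 and 0. Which cells gave the peaks of the members was not tested.

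**Figure D5:**
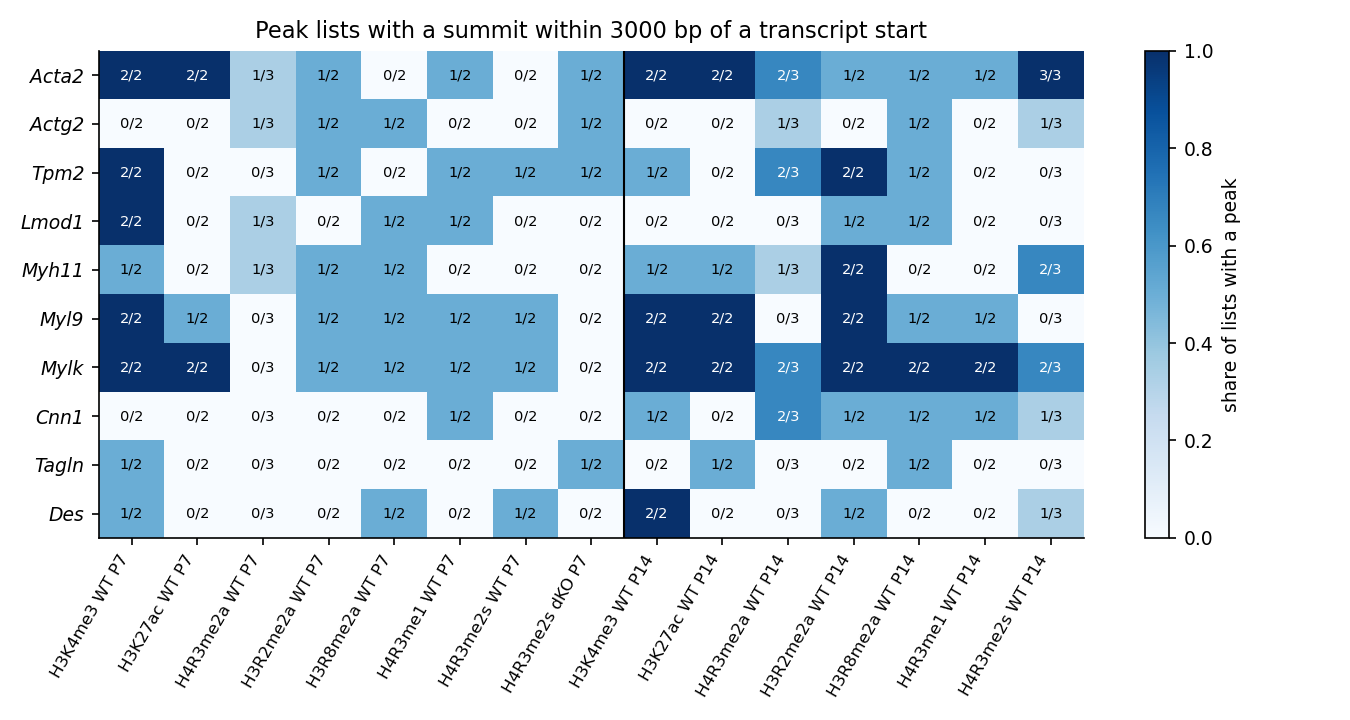
Number of peak lists with a summit within 3000 bp of a transcript start, of all lists of each mark, genotype and age, for the 10 contractile genes, with darker blue for a larger share and a line between P7 and P14. Acta2, Mylk and Myl9 hold most of the dark cells, and no arginine mark reaches 2 lists at P7.

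The peak of the Acta2 promoter in H3K27ac at P14 covered chr19:34254422-34255866 in replicate 1 (fold enrichment 5.53) and chr19:34255223-34255852 in replicate 2 (4.68), with summits 129 and 120 bases after a start. Both peaks span both looser CArG boxes of Acta2 printed above, as did an H3K27ac peak in each P7 list. A further H3K27ac peak of P7 replicate 2, chr19:34254811-34255024, did not reach them. At Mylk the strongest member peak of all lists was H3K4me3 at P14 in replicate 2, chr16:34745144-34745866, with a fold enrichment of 8.14 and its summit 121 bases after a start; the other P14 list gave 5.30 there. At Tpm2, the H3K4me3 peaks at P7 had fold enrichments of 5.01 and 4.73, with summits 75 and 24 bases after a start. At Lmod1 they had 4.53 and 5.70. At Myl9 the exact CArG box lay inside a peak of 1 of 2 H3K4me3 lists at each age.

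The arginine marks were then counted in the same way. At P7 none of the 10 members was marked in 2 lists by H4R3me2a, H3R2me2a, H3R8me2a, H4R3me1 or H4R3me2s in WT, beside 15.3%, 11.0%, 9.71%, 10.8% and 17.8% of protein-coding genes, nor by H4R3me2s in dKO, beside 9.82%. Counting a peak in at least 1 list, 9 of 10 members had an arginine mark in WT, beside 72.1% of protein-coding genes, and 4 had H4R3me2s in dKO, beside 40.7%. At P14, H4R3me2a was found at 4 members (Acta2, Tpm2, Mylk and Cnn1) beside 49.0%, H3R2me2a at 4 (Tpm2, Myh11, Myl9 and Mylk) beside 51.3%, H4R3me2s at 3 (Acta2, Myh11 and Mylk) beside 34.2%, and H3R8me2a and H4R3me1 at 1 each, Mylk, beside 33% and 29.9%. With 10 members, these counts lie near the background or below it, and nothing particular to the members is read from them. The peaks at P14 were weak, with fold enrichments between 2.18 and 4.13, and at a q of at most 0.01 the count of members marked by any arginine mark was 1, beside 34.3% of protein-coding genes. The lists at P14 were longer than at P7 for most marks, and with all lists brought to the length of the shortest, 15361 peaks, 3 members were marked by an arginine mark, beside 43.9%, in place of 6, beside 63.8%.

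Over all 33 lists, Mylk had a promoter peak in 22, Acta2 in 20, Myl9 in 15, Tpm2 in 12, Myh11 in 11, Cnn1 in 8, Actg2, Lmod1 and Des in 7 each, and Tagln in 4. Members differ in the number of annotated starts, from 1 for Lmod1 to 8 for Mylk, and more starts give more room for a match. Acta2 was the member with H4R3me2s in all 3 lists at P14, with summits 0, -13 and 122 bases from a start and fold enrichments of 4.13, 3.72 and 3.19. Peak names inside those 3 lists carry another age than the labels, which were followed here. In dKO at P7, H4R3me2s peaks were present at Acta2, Actg2, Tpm2 and Tagln in 1 of 2 lists each, and in WT at Tpm2, Myl9, Mylk and Des in 1 of 2 lists each.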

How the data were processed

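The members and all gene lists were chosen with earlier results of these data known. The authors trimmed reads with fastp 0.23.2, aligned RNA-seq reads to mm10 with STAR and deposited RSEM tables of expected counts, TPM and mean transcript length per gene. For CUT&Tag they deposited MACS2 2.1.0 peak lists holding fold enrichment (a ratio) and the −log10 of the p-value and q-value; the sources used here do not name the aligner or control. TPM depends on every other gene of a library, and depth is unknown for the lists.

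Expected counts were rounded and tested with edgeR 4.0.16 (R 4.3.3; filterByExpr, TMM scaling, quasi-likelihood test, Benjamini-Hochberg FDR under 0.05 and at least 2-fold). Bulk and Smart-seq2 comparisons used their own libraries, and the interaction used all 10. Alternatives were DESeq2 1.42.0, limma-voom (limma 3.58.1), RLE scaling, no filter, leaving out each library, and a replicate block. The code was tested on simulated data. Named genes were the members, Prmt1, the regulators of transcription, the 4 genes per list with the lowest bulk FDR, and the 5 genes most like the members. Further genes of the cell marker lists were named beside them. Some listed genes are not reported here. Fits against a group at or under 3 counts are given as bounds. Of 149 listed symbols, 148 matched GENCODE vM21. Intervals and floors cover counting error only. Promoter sequences are from RefSeq.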

Additional observations from a re-analysis of the deposited data

Results flagged for a closer look

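The genotype effect on 5 members differed between bulk RNA and sorted cells by edgeR's interaction test with Benjamini-Hochberg adjustment over 19608 genes. It was more negative in bulk for Lmod1 (FDR 0.000227), Des (FDR 0.000248), Cnn1 (FDR 0.00309) and Myh11 (FDR 0.0409). Each of these had no count in both Smart-seq2 WT libraries, and the lowest nonzero counts in Smart-seq2 dKO were 14 for Lmod1, 23 for Des, 21 for Cnn1 and 98 for Myh11, which was present in 1 dKO library only. For Tagln the effect was more negative in the sorted cells (difference 2.73 ± 0.75 SE, FDR 0.0339). Over the alternatives its FDR lay between 0.00267 and 0.153, and the call was lost under limma-voom and without Smart-seq2 WT replicate 2, Smart-seq2 dKO replicate 2 or any single bulk WT replicate.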

How the results depend on the processing

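In bulk, RLE scaling, limma-voom and no filter on low counts called the same 4 members, beside 1.84%, 1.96% and 1.26% of genes called lower. With no filter, 2152 genes were called in either direction. DESeq2 called 3, without Actg2, beside 1.37% of genes called lower. Leaving out 1 library gave 2 to 6 members lower, beside 1.14% to 2.36% of genes. Replicate numbers did not pair the samples (correlation of same-numbered bulk libraries 0.0825, -0.221 and -0.119, and 0.0177 in Smart-seq2). With a replicate block, 950 bulk genes and the same 4 members were called, beside 1.56% of genes called lower. In Smart-seq2 the block gave 0 genes, with log2 fold changes of 0.88 for Tpm2 and 1.34 for Acta2.

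In Smart-seq2, DESeq2 called 1902 genes and 1 member lower, beside 3.93% of genes lower. By limma-voom, 1696 genes and 3 members higher were called, beside 9.4% of genes higher, with 1.06 for Tpm2 and 1.55 for Acta2. Myl9 was at -0.025 with RLE and -0.030 with DESeq2. Leaving out 1 library gave 0 to 7436 genes, 0 to 5 members higher, 0 to 3 lower and -0.96 to 0.36 for Myl9. Smart-seq2 against bulk in WT gave 6268 to 12643 genes. For the interaction, limma-voom called 0 members higher, with -1.73 for Tpm2 and -2.79 for Acta2, and leaving out 1 library gave 2493 to 7665 genes, 0 to 1 member higher, -0.82 to 0.50 for Myl9 and -0.41 to 1.18 for Acta2. The cause was not tested.

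Counting a peak in at least 1 list gave 8 members for H3K4me3 (beside 63.9% of protein-coding genes), 9 for arginine marks (72.1%) and 4 for dKO H4R3me2s (40.7%) at P7, and 7 for H3K4me3 (67.0%), 5 for H3K27ac (62.5%) and 10 for arginine marks (79.7%) at P14. At a q of at most 0.01, H3K27ac at P7 had 0 members (beside 10.4%) and arginine marks at P14 had 1 (34.3%). With equal list length, H3K27ac at P7 had 1 (24.5%), H3K4me3 at P14 had 1 (53.8%) and arginine marks at P14 had 3 (43.9%), and a window of 1000 bp gave 3 for the latter (55.3%). In 167 fits a group held at most 3 counts, and no fold change is given. Counts near 0 limit what the Smart-seq2 values can show.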
